A study of Drosophila melanogaster with 4 samples.

Results

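The subject is the set of dMi-2 enriched regions on the X chromosome of Drosophila melanogaster in wild-type Oregon-R embryos aged 14 to 16 h. The regions come from chromatin immunoprecipitation and sequencing (ChIP-seq) with the dMi-2 antibody Q4443, in 2 ChIP libraries that each had an input library as control. Members were chosen by position alone, as the regions on X whose midpoint lies at or below position 21422827 of FlyBase release 5, which leaves out the last 1 Mb by the centromere. This gave 1714 of the 9388 regions of the combined list, 744 of 4213 in replicate 1 and 1005 of 5359 in replicate 2. The embryos were whole, and the labels give neither their sex nor whether the replicates came from separate collections. The lists hold a start, an end and a score for each region, with no read counts, and sequencing depth is therefore unknown.

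dMi-2 is the Drosophila CHD-family ATPase that slides nucleosomes in the NuRD and dMec complexes, and it is known both from gene repression and from transcribed genes on polytene chromosomes. The X is the chromosome that fly males carry as a single copy. In males the MSL complex binds it and acetylates its histone H4, which raises transcription of X-linked genes. The arms 2L, 2R, 3L and 3R, each likewise without its last 1 Mb by the centromere, served as background.

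At the limit of the rule, the last combined-list region inside was X:21258396-21259790 (score 0.403) and the first outside was X:21469054-21470716 (score 0.515). In replicate 1 the neighbours of the limit were X:21244594-21247770 inside (score 0.845) and X:21475086-21477055 outside (score 0.654). In replicate 2 they were X:21244251-21247168 inside (score 0.695) and X:21474980-21477664 outside (score 0.689). No region of any list lay across the limit.

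Counting regions of every score, the X carried dMi-2 regions at about the density of the long autosomal arms. The combined list held 80.0 regions per Mb on X, against 80.4 on the 4 autosomal arms together and 73.8 to 91.0 on the single arms. Replicate 1 held 34.7 per Mb on X, against 31.3 to 44.4 on the autosomal arms. Replicate 2 held 46.9 per Mb on X, against 40.1 to 54.4. The ratio of X to the 4 arms together was 0.996 in the combined list (95% interval 0.944 to 1.05, counting error only), 0.947 in replicate 1 and 1.02 in replicate 2. When combined-list regions scoring under the list's median were left out, the ratio was 1.68. That value restates a difference in scores, as 74.8% of X regions reached the median, against 44.3% on the 4 arms together. With all regions, X lay inside the range of the autosomal arms in all 3 lists. Covered sequence gave the same placement, with 22.1% of X covered in the combined list against 19.0% to 25.8%, 8.02% in replicate 1 against 7.09% to 10.6%, and 12.1% in replicate 2 against 10.2% to 14.8%. With 5 arms, an exact permutation of the arm labels cannot give a p below 0.2, and regions of a list share their library, so differences between arms are given as ranges with no p-value.

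Density changed along the chromosome, and the replicates placed the richest and the poorest stretch alike. Among the 21 full 1-Mb bins of X, the combined list ranged from 40 to 114 regions with a median of 83, replicate 1 from 14 to 54 with a median of 32, and replicate 2 from 25 to 75 with a median of 48. The same bin, from 1 to 2 Mb from the telomere end, was the richest in all 3 lists. The same bin, from 20 to 21 Mb, was the poorest in all 3. The bin from 7 to 8 Mb differed, with 40 regions in replicate 1, above its median, and 33 in replicate 2, below its median. On the autosomal arms the richest bins held 106 to 122 combined-list regions and the poorest 32 to 59, so both extremes of X lay within what these arms showed.

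**Figure D1:**
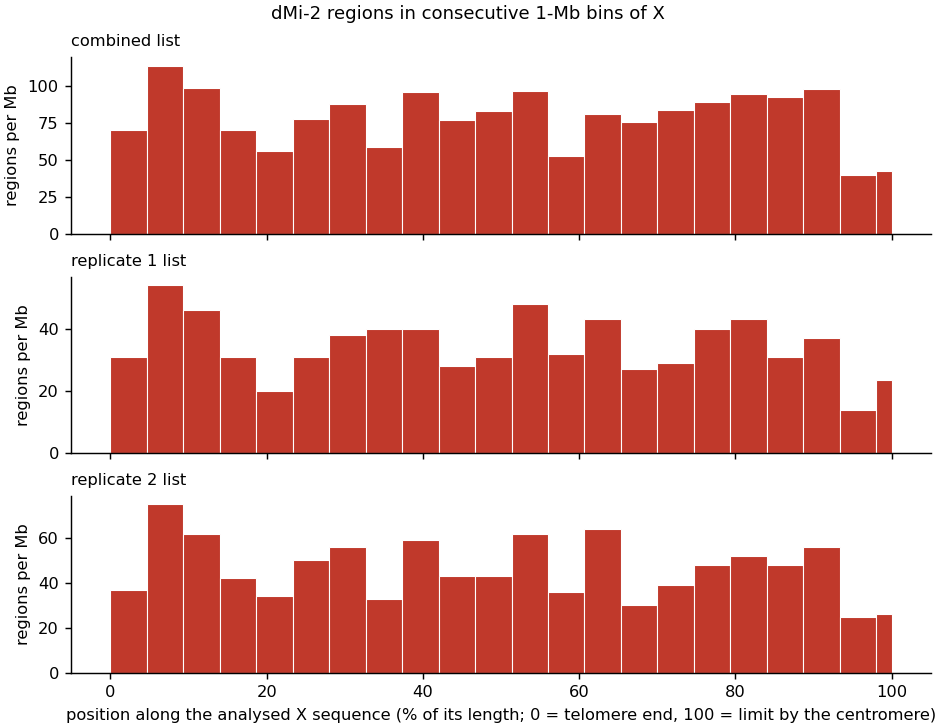
Number of dMi-2 regions per Mb in consecutive 1-Mb bins of X for the combined list and each replicate list, with position as a share of the analysed length from the telomere end. Bars are counts of regions, and the last, narrower bar is a partial bin. The tallest bar of each panel is the second bin, with 114, 54 and 75 regions, and the lowest full bin is the 21st, with 40, 14 and 25.

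The distal stretch from 1 to 3 Mb, an interval chosen after its values had been seen, was rich in regions and in wide regions. By number, only its bin from 1 to 2 Mb stood apart. The bin from 2 to 3 Mb held 99, 46 and 62 regions in the combined, replicate 1 and replicate 2 lists. The bin from 11 to 12 Mb held 97, 48 and 62. The distal stretch makes up 9.34% of the analysed sequence. It held 213 of the 1714 combined-list regions (12.4%), 100 of 744 in replicate 1 (13.4%) and 137 of 1005 in replicate 2 (13.6%). The combined list covered 33.1% of it. Of the 25 combined-list regions of at least 10 kb on X, 8 lay there, and so did 5 of 9 in replicate 2. The only X region of that width in replicate 1 lay elsewhere.

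A finer profile gave the same picture. In 214 windows of 100 kb, the covered shares of the replicates correlated with a Pearson r of 0.914 (Spearman rho 0.911), against Pearson values of 0.918 to 0.927 on the autosomal arms. These values describe windows of 1 arm in 2 libraries, and neighbouring windows are not independent. Replicate 2 covered more than replicate 1 in 172 of the windows and less in 24. Both replicates were empty in 18 windows, replicate 2 alone was empty in 3 and replicate 1 alone in 8.

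The most densely covered 50-kb windows of X lay mostly in the distal stretch. The first was X:2150001-2200000, covered to 79.1% in the combined list and ranked first in both replicates, which covered 38.6% (replicate 1) and 65.4% (replicate 2) of it. The next was X:1150001-1200000 with 72.7%, ranked 10 in replicate 1 and 15 in replicate 2. The third was X:1950001-2000000 with 69.2%, ranked 8 and 2. The other 2 lay farther along, at X:17600001-17650000 with 68.3%, ranked 18 and 37, and at X:6550001-6600000 with 65.3%, ranked 33 and 7. The first window was thus the peak of every list, while the order below it differed between the replicates.

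Of the 428 full 50-kb windows of X, 32 were covered to at least 50% by the combined list (7.48%), against 5.45% to 11.2% on the autosomal arms. Median coverage was 19.5% on X and 16.7% to 24.4% on those arms.

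Empty sequence made up a modest part of X. In the combined list 51 of 428 windows held no region (11.9%, exact interval 9.00 to 15.4), against 8.46% to 16.8% on the autosomal arms. In replicate 1 it was 125 windows (29.2%) against 22.1% to 35.0%, and in replicate 2 it was 108 windows (25.2%) against 19.2% to 27.7%. All 3 lists were empty in 50 windows. The combined-list share on X depended on the window size, at 29.1% with windows of 20 kb and 3.27% with windows of 100 kb. Distances of more than 100 kb between combined-list neighbours numbered 18 on X and summed to 2.51 Mb, against 12 to 33 distances and 1.61 to 4.74 Mb on the autosomal arms.

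The longest stretch of X without a combined-list region ran from X:20664515 to 20898053, or 233.5 kb, and neither replicate held a region in it. It lies in the poorest bin. The second, X:4602865-4802283 (199.4 kb), was also empty in both replicates, and regions found in both replicates bordered it on either side, with scores of 0.700 and 0.838. The third, X:19858649-20052315 (193.7 kb), held no complete replicate region, and 1 replicate 2 region reached over its edge. The fourth, X:7235449-7407961 (172.5 kb), was bordered by a 9.2-kb region of score 0.758 found in both replicates, and 1 replicate 1 region reached over its edge. The fifth, X:14217373-14366973 (149.6 kb), was empty in both replicates and had regions found in neither replicate on both sides. The longest distances on the autosomal arms were 195.9 to 317.8 kb.

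Regions on X often stood in short rows. Combined-list neighbours on X were a median of 3.22 kb apart, against 3.22 to 3.97 kb on the autosomal arms, and 1035 of 1713 distances on X were at most 5 kb (60.4%, exact interval 58.1 to 62.7), against 55.6% to 62.3%. In replicate 1 the share was 31.8%, against 30.8% to 32.8% on the autosomal arms. In replicate 2 it was 43.2%, against 36.8% to 44.3%. X stayed inside the autosomal range in this share in all 3 lists. At the 10th percentile, distances were shorter on X in both replicates. They were 0.735 kb on X and 0.861 to 1.18 kb on the autosomal arms in replicate 1, and 0.566 kb on X and 0.662 to 1.02 kb in replicate 2. In the combined list X was inside the autosomal range, at 0.280 kb against 0.273 to 0.340 kb. At the 2nd percentile of replicate 1, X had 0.103 kb and 2L 0.101 kb. By the 25th percentile X was inside the autosomal range in both replicates. It had 3.36 kb against 3.35 to 3.71 kb in replicate 1, and 2.23 kb against 2.18 to 3.05 kb in replicate 2. In the combined list X had 1.013 kb there and 2R 1.015 kb.

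**Figure D2:**
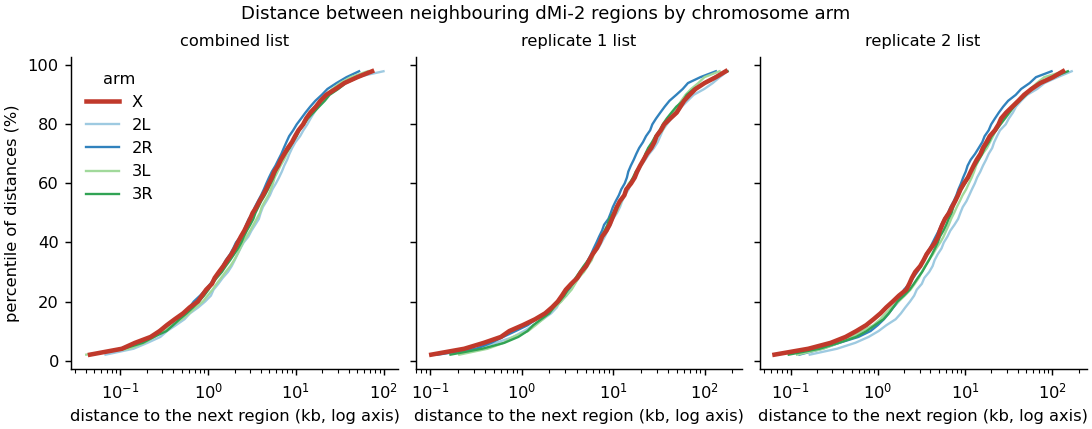
Cumulative distribution of the distance between neighbouring dMi-2 regions (kb, log axis) for X and the 4 long autosomal arms, 1 panel a list and 1 line an arm. The X medians are 3.22 kb in the combined list, 10.4 kb in replicate 1 and 6.53 kb in replicate 2. At the 10th percentile the X line lies left of the autosomal lines in both replicates, at 0.735 kb in replicate 1 and 0.566 kb in replicate 2, but not in the combined list. By the 25th percentile it lies among the autosomal lines in both replicates, at 3.36 kb in replicate 1 and 2.23 kb in replicate 2.

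When combined-list regions at most 2 kb apart were joined into runs, 685 regions of X stood alone and 1029 stood in runs. Regions outside runs made up 40.0% on X, against 39.3% to 44.9% on the autosomal arms. Runs of 5 or more regions numbered 24 on X and held 148 regions. The run with most regions on X was X:2527606-2560398, where 9 regions filled 77.8% of 32.8 kb. Of these 9, 4 overlapped both replicates and 3 neither.

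The other run of 9, X:6502862-6526838 (24.0 kb), had a different make-up. None of its regions overlapped both replicates, 6 overlapped neither, and their scores spanned only 0.431 to 0.509. The run X:8771960-8803152 joined 8 regions over 31.2 kb, of which 3 overlapped both replicates. The run X:14955650-14986044 also joined 8 regions, over 30.4 kb, and each overlapped at least 1 replicate. The fifth run, X:1145780-1183718, was the most filled of these 5, with 7 regions over 94.4% of 37.9 kb.

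Widths on X were much like those of the autosomal arms. The median was 2026 bp in the combined list, against 2011 to 2145 bp on the autosomal arms, 1985 bp in replicate 1, against 1943 to 1998.5 bp, and 2059 bp in replicate 2, against 2079 to 2135 bp. The replicate 2 median was thus the lowest of the 5 arms. Regions of at least 5 kb numbered 191 on X in the combined list (11.1%, against 8.25% to 11.4%), 29 in replicate 1 (3.90%, against 2.92% to 4.81%) and 77 in replicate 2 (7.66%, against 5.66% to 8.03%).

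The 5 widest X regions ranged from 15.4 to 27.9 kb, and all overlapped both replicates. X:2175914-2203824 (27.9 kb, score 0.865) corresponded to 4 regions of replicate 1, filling 64.3% of it, and to 2 of replicate 2, filling 93.8%. X:7584440-7608054 (23.6 kb, score 0.688) overlapped 3 regions in replicate 1 and 6 in replicate 2. X:10621584-10641136 (19.6 kb, score 0.732) was the most evenly covered of the 3, with 5 regions of replicate 1 over 80.5% of its length and 4 of replicate 2 over 85.4%. X:1856094-1872020 (15.9 kb, score 0.945) was nearly filled by 1 region of replicate 2 (97.0%). X:3630898-3646344 (15.4 kb, score 0.782) overlapped 3 regions in each replicate.

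Replicate support on X was close to that of the autosomal arms for replicate 1 and a little lower for replicate 2. An overlap of 1 bp was enough for a region to count as shared. Of the X regions of replicate 1, 597 of 744 were shared with replicate 2 (80.2%, exact interval 77.2 to 83.0), against 80.0% on the 4 autosomal arms together and 77.7% to 82.1% on the single arms. Of the X regions of replicate 2, 575 of 1005 were shared with replicate 1 (57.2%, exact interval 54.1 to 60.3), against 61.4% together and 59.9% to 62.6% on the single arms. X thus lay inside the autosomal range for replicate 1 and below it for replicate 2. When a shared region had to have its centre at most 250 bp from the other's, the shares on X were 29.2% for replicate 1 and 21.6% for replicate 2.

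Replicate 2 also held relatively more regions on X, with 1.35 times the number of replicate 1, against 1.23 to 1.28 times on the autosomal arms. In covered sequence the ratio was 1.51 on X, against 1.39 to 1.44. Sequence covered in both replicates came to 1.32 Mb of X, equal to 76.7% of what replicate 1 covered there and 50.7% of what replicate 2 covered. On the autosomal arms the second share was 52.1% to 55.6%. Each of these 3 values for X was outside the range of the 4 arms, and none was tested.

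Of the 1714 combined-list regions on X, 512 overlapped both replicates (29.9%, exact interval 27.7 to 32.1), against 32.5% on the 4 autosomal arms together and 31.2% to 34.5% on the single arms. A further 121 overlapped replicate 1 only (7.06%) and 377 overlapped replicate 2 only (22.0%, against 19.1% to 19.7% on the autosomal arms). The remaining 704 overlapped neither (41.1%, against 37.7% to 42.5%). With a reciprocal overlap of 50%, 17.1% of the X regions were found in both replicates, and with centres within 250 bp 7.70% were, while 63.3% were then in neither. At 1 bp, X had the lowest share in both replicates and the highest share in replicate 2 only among the 5 arms.

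Support on X followed width. Width had a median of 3996 bp over the 512 regions in both replicates, which accounted for 52.4% of the covered sequence. It had a median of 1351 bp over the 704 in neither, which accounted for 22.4%, and those in replicate 1 only or replicate 2 only had medians of 2107 and 2139 bp. Overlap by 1 bp is met more easily by a wide region. Of the 350 X regions narrower than 1301 bp, the smallest replicate region, none overlapped both replicates. From 2 to 3 kb the share in both was 33.0% on X, against 38.7% on the autosomal arms, and from 3 to 5 kb it was 65.6% on X, against 70.8%. From 5 to 10 kb it was 92.8% on X, against 94.3%, and all 25 regions of at least 10 kb on X overlapped both.

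**Figure D3:**
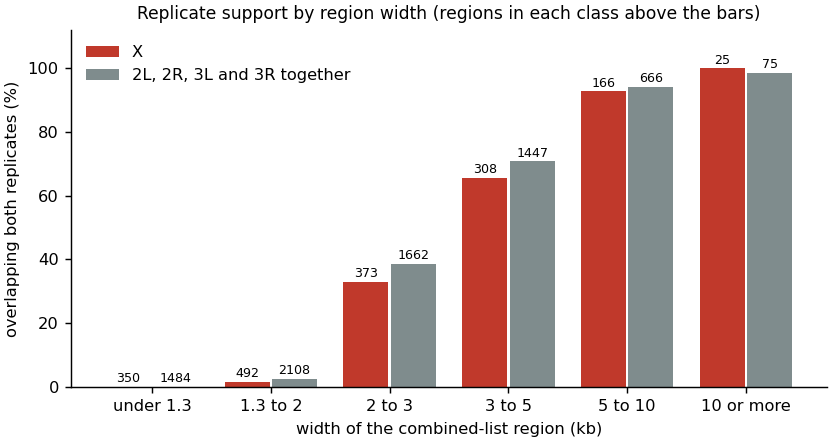
Share of combined-list regions that overlapped both replicates (%), by width class in kb, for X and for the 4 long autosomal arms together, with the number of regions above each bar. The share climbs with width on both, from 0 in the narrowest class to 100% of 25 regions on X in the widest.

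Most supported regions corresponded region by region. Of the 512, 387 (75.6%) overlapped exactly 1 region of each replicate, and the most divided ones overlapped up to 5 regions of replicate 1 or 6 of replicate 2. Between the replicates, 462 pairs on X overlapped each other and nothing else. Their starts differed by a median of 341 bp and their ends by 309.5 bp, against medians of 279 to 337 bp and 274.5 to 325 bp on the autosomal arms. Both edges lay within 500 bp in 40.7% of the X pairs, against 42.5% to 50.8%. The replicate 2 region was the wider of the pair in 338 of 462 (73.2%), against 69.9% to 72.6% on the autosomal arms.

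Regions found in both replicates were spread along X at 23.9 per Mb, against 23.0 to 31.4 per Mb on the autosomal arms. The median distance to the next one was 13.1 kb on X, against 11.5 to 14.9 kb. Of the 704 regions found in neither, 247 (35.1%) lay within 5 kb of a region found in both, against 33.0% to 43.5% on the autosomal arms, and 92 (13.1%) lay more than 50 kb from the nearest one, against 6.36% to 10.7%. The share in both also varied between bins, at 43.2% from 13 to 14 Mb and 41.5% from 12 to 13 Mb, and at 19.7% from 14 to 15 Mb and 17.5% from 20 to 21 Mb. The bin from 12 to 13 Mb had only 53 combined-list regions, so a poor bin could still hold well supported regions.

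The scores of X regions were higher than those of the autosomal arms over nearly all of their range. The score is the authors' own value per region on a scale that their files do not name, and it was compared between arms within a list only. At or above the median of the whole list were 1282 of the 1714 X regions of the combined list (74.8%, exact interval 72.7 to 76.8), against 44.3% on the 4 autosomal arms together and 40.8% to 47.7% on the single arms. In replicate 1 it was 577 of 744 X regions (77.6%), against 44.1% together and 41.0% to 48.8% singly. In replicate 2 it was 728 of 1005 X regions (72.4%), against 44.8% together and 42.0% to 46.3% singly. X was above all 4 arms in each list, and the combined list is not independent of the replicates.

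The difference was present from the low end of the distribution to its upper part, but not throughout the very top. Median scores were 0.494 on X and 0.423 to 0.438 on the autosomal arms in the combined list, 0.699 on X and 0.601 to 0.619 in replicate 1, and 0.685 on X and 0.598 to 0.608 in replicate 2. The 10th percentile was 0.401 on X and 0.346 on the 4 arms together in the combined list, 0.584 and 0.494 in replicate 1, and 0.549 and 0.487 in replicate 2. The 90th percentile was 0.680 on X and 0.603 on the 4 arms in the combined list, 0.864 and 0.763 in replicate 1, and 0.871 and 0.800 in replicate 2. At the 95th percentile the distance to the nearest arm was smaller, with 0.918 on X and at most 0.908 on an autosomal arm in replicate 1, and 0.940 on X and at most 0.912 in replicate 2. At the 98th percentile of replicate 1, X had 0.972 and 2R had 1.04. The lowest score on X was also above the lowest on every autosomal arm, at 0.249 against 0.243 or less in the combined list, 0.410 against 0.359 or less in replicate 1, and 0.373 against 0.347 or less in replicate 2.

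**Figure D4:**
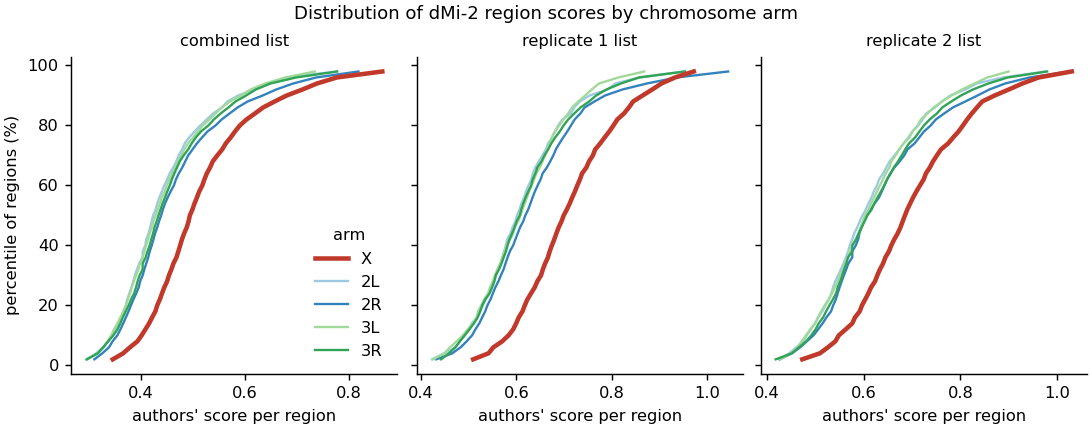
Cumulative distribution of the authors' region score for X and the 4 long autosomal arms, 1 panel a list and 1 line an arm, from the 2nd to the 98th percentile. The X line lies to the right of the autosomal lines over most of the range, with medians of 0.494, 0.699 and 0.685 in the combined, replicate 1 and replicate 2 lists, and crosses that of 2R near the top in replicate 1.

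X scores were higher in every class of width. In 6 classes of width, the median X score of the combined list exceeded the autosomal one by 0.0558 to 0.0646, and in 5 classes the excess was 0.0903 to 0.105 in replicate 1 and 0.0629 to 0.0875 in replicate 2. It was also present along the whole chromosome: the lowest median of any full 1-Mb bin of X was 0.475 in the combined list, 0.627 in replicate 1 and 0.645 in replicate 2, each above the median of every autosomal arm. As the scale of the score is not given, the size of the shift has no unit.

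The number of X regions among the highest scores differed once the shift was taken off. Of the 100 highest scores on the 5 arms, X held 29 in the combined list, 24 in replicate 1 and 31 in replicate 2, with 18.7%, 18.0% and 19.1% of all regions of these arms. With the median of its own arm taken off each score, X held 19, 10 and 13 of the highest 100. X had the highest median of the 5 arms in each list. Taking the medians off could therefore only lower its count or leave it unchanged.

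Among the X regions found in both replicates, 1 stood far above the rest. X:5417228-5419646, 2.4 kb wide, had a combined-list score of 1.78 and the highest score of X in both replicates, 1.84 in replicate 1 and 1.74 in replicate 2. It was the narrowest of the 10 strongest, and replicate 1 covered 99.5% of it and replicate 2 93.5%. Its neighbours lay 1.39 and 2.90 kb away.

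X:1290942-1296580 (5.6 kb, score 1.09) ranked 2 on X in both replicates, with scores of 1.11 in replicate 1 and 1.38 in replicate 2. X:7192650-7204320 (11.7 kb, score 0.997) ranked 3 on X in both, with scores of 1.10 and 1.20. The replicates thus agreed on the first 3 X regions and their order, though the combined list put X:7983880-7988464 (4.6 kb, score 1.06) between them, which ranked 5 in replicate 1 and 8 in replicate 2.

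The remaining 6 of the 10 ranked less alike. X:11607056-11612460 (score 0.985) ranked 17 on X in replicate 1 and 9 in replicate 2, and X:13019898-13026744 (score 0.964) ranked 15 and 12. X:12627250-12632776 (score 0.971) differed most, with rank 75 in replicate 1 and 4 in replicate 2. The last 3 lay within the distal 1 to 3 Mb: X:1856094-1872020 (score 0.945, ranks 44 and 19), X:2027586-2041406 (score 0.934, ranks 9 and 5) and X:1902052-1908188 (score 0.909, ranks 34 and 26). With X:1290942-1296580, 4 of the 10 strongest regions were in that stretch, which was chosen after its values had been seen. Its bins from 1 to 2 and from 2 to 3 Mb held 41 and 32 of the 512 X regions found in both replicates. The eleventh in order had a score of 0.908, just under the tenth.

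**Figure D5:**
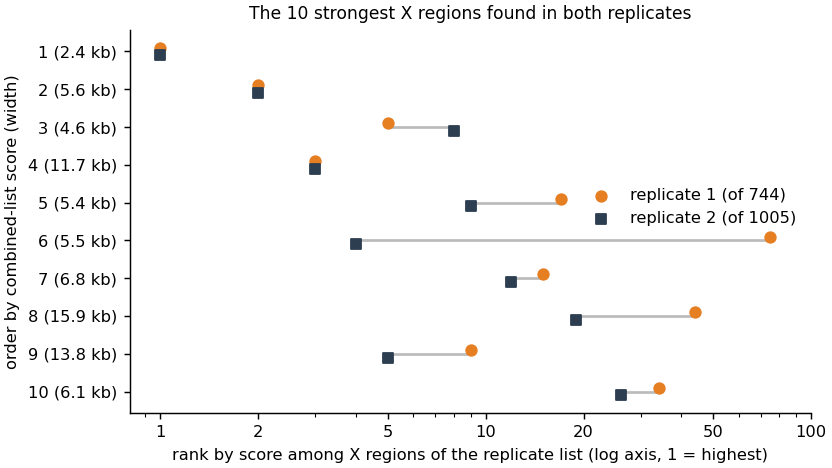
Rank by score among the X regions of each replicate list (log axis, 1 is highest) for the 10 strongest X regions found in both replicates, ordered by combined-list score with the width in kb. Circles are replicate 1 and squares replicate 2, and the line joins them. Circle and square coincide at ranks 1, 2 and 3, and lie farthest apart for the sixth region, at 75 and 4.

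Over all 636 overlapping pairs of replicate regions on X, these strongest ones included, the Spearman rho between replicate scores was 0.467 and the Pearson r was 0.548, given as a description over regions that share their libraries, against a rho of 0.448 to 0.486 on the autosomal arms. X regions were split by score into 4 classes of equal number. In replicate 1, 91.4% of the highest class and 75.3% of the lowest were shared, and in replicate 2 84.9% of the highest and 35.3% of the lowest. The highest-scoring class was also the wider. In replicate 1 its median width was 2930.5 bp, against 1572 bp in the lowest class, and in replicate 2 it was 3396 bp, against 1603 bp.

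The few highest combined-list scores of X were a poor match to the replicates, though high-scoring regions as a class were mostly shared. Of the 8 highest, 7 came from regions with no overlap in either replicate, and 6 of those 7 were narrower than any replicate region. The highest of all on X, at X:11431318-11432318, had a score of 2.57 over 1.0 kb, and the next was X:14178958-14180718, 1.8 kb wide. Among the 100 highest on X, 83 overlapped both replicates and 17 neither, against 29.9% and 41.1% of all X regions of the combined list. With the combined list split by score into 4 classes, 78.3% of the highest class and 2.56% of the lowest overlapped both. Here too the highest class was the wider, with a median of 3805 bp against 1653 bp in the lowest.

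The highest-scoring X regions of 1 replicate alone were 1.4 to 3.0 kb wide. In replicate 1 these were X:16793304-16794818 (1.5 kb, score 0.912), 14.8 kb from the nearest replicate 2 region, X:2438593-2440763 (2.2 kb, score 0.898), 0.668 kb from one, and X:17199597-17201103 (1.5 kb, score 0.844), 1.81 kb from one. In replicate 2 they were X:13070827-13072182 (1.4 kb, score 1.03), 13.7 kb from the nearest replicate 1 region, X:1421186-1422910 (1.7 kb, score 0.942) and X:15216128-15219140 (3.0 kb, score 0.921). Of these 6, only X:16793304-16794818 had no overlap in the combined list. Unshared X regions had a median width of 1538 bp in replicate 1 and 1676.5 bp in replicate 2, against 2108 and 2578 bp for shared ones.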

How the data were processed

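Enriched regions of 2 dMi-2 ChIP replicates, each with its own input library, and a combined list were analysed. Reads were aligned with Bowtie 0.12.7, per the submitters' processing notes, and coordinates are on FlyBase release 5, per the file headers. Not given in the sources used here are the caller, its settings, the read filters and whether reads were pooled for the combined list. The deposited score of each region is the authors' value on an unnamed scale, and the start and end are 1-based, per the file headers. Regions were kept by midpoint, and sharing means an overlap of at least 1 bp. Intervals are 95% exact binomial (Clopper-Pearson) and cover counting error only. No p-value was computed. Functions were tested on simulated data. Regions named are the 10 strongest found in both replicates, the 5 widest, the 5 most covered 50-kb windows, the 5 largest runs, the 5 longest empty stretches and the 3 highest unshared regions of each replicate. Members and rules were chosen with earlier results of these data known. The ranking of X scores whatever the support, the interval from 1 to 3 Mb, the bins, the edges of paired regions, support by width, spacing by support and the score comparisons by percentile and width were chosen after seeing the data. Genes and sequences are left out because the gene table at hand is on release 6. Python 3.11.15, numpy 2.4.6, pandas 2.3.3 and scipy 1.17.1 were used.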

Additional observations from a re-analysis of the deposited data

Results flagged for a closer look

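X-linked sequence outside the limit of the rule also held dMi-2 regions. In the last 1 Mb of X by the centromere the combined list held 35 regions (35.0 per Mb, against 80.0 on the rest of X), of which 9 overlapped both replicates, 10 only 1 of them and 16 neither, and the replicate lists held 10 and 19. The heterochromatic scaffold XHet, of 0.204 Mb, held 7 combined-list regions (34.3 per Mb), of which none overlapped both replicates, 2 overlapped 1 of them and 5 neither, and the replicate lists held 1 region each there. Both combined-list counts, but not the replicate counts on XHet, exceed the 3 that a count of 0 allows. That comparison uses regions already called, so it cannot show how reliable they are, and how well reads could be placed there is unknown.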

How the results depend on the processing

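Of 55 alternative values, 22 lay inside the 95% interval around the value in the report and 33 moved. Sign was followed only for the difference of median scores, and it did not change. The density ratio of X crossed 1, from 0.996 as reported to 1.02 without replicate 1. Its interval as reported, 0.944 to 1.05, already included 1. Whole arms moved none. With only regions at or above the median score of their list, the density ratio of X was 1.68, its median width 2381 bp, the share within 5 kb 48.8%, the share of replicate 1 regions shared 72.4% and of empty windows 15.4%. The ratio of 1.68 restates the larger share of X regions that reached the median score. Merging regions closer than 1000 bp gave a width of 2505 bp and 47.3% within 5 kb. Without combined-list regions narrower than 1301 bp, the width was 2427 bp, 55.2% lay within 5 kb, 37.5% overlapped both replicates and 27.9% neither, 16.1% of windows were empty and 72.1% of regions reached the median score. With a reciprocal overlap of 50%, 17.1% overlapped both and 50.1% neither, and 60.9% (replicate 1) and 45.1% (replicate 2) were shared. With centres within 250 bp these were 7.70%, 63.3%, 29.2% and 21.6%. Windows of 20 kb were empty in 29.1% and windows of 100 kb in 3.27%. From 1 replicate alone, values ranged from 0.947 to 1.02 for the density ratio, 1985 to 2059 bp for width, 31.8% to 43.2% within 5 kb, 48.1% to 63.1% in neither, 25.2% to 29.2% of empty windows, 72.4% to 77.6% at or above the median score and 0.0807 to 0.0901 for the difference of median scores (0.0627 as reported, alternatives chosen after seeing the data). Except where a setting by its construction removes or joins regions or uses a shorter list, the cause was not tested. No paired analysis was possible because the results come from no test. Depth is unknown and limits what a missing region can show.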
